A study of Mus musculus with 6 samples.

Results

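Frizzled receptors were examined in LKS+ cells, a fraction of mouse bone marrow without markers of mature lineages, with high c-Kit and with Sca-1, in which blood stem cells and early progenitors are found. The family was taken as 9 genes, Fzd1 to Fzd9, of the 18193 genes the arrays measured, and every probe set annotated to exactly 1 of these symbols was used, which gave 24 of 45037 probe sets. The brightest probe set by its 6-array mean stood for its gene, a choice that does not use genotype. The arrays were 3 from Apcmin mice and 3 from wild-type (WT) mice. Apcmin animals carry the Min allele, a germline premature stop in Apc that is present in every tissue and not confined to blood cells, so the cells could differ through their own genotype or through the animal they came from. No treatment is named in the labels, and they give no age, sex or strain background. Each array was taken as 1 mouse, though no label names the animals, so p-values measure the spread between these arrays only.

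Frizzled proteins are membrane receptors whose extracellular cysteine-rich domain binds Wnt ligands. Together with the coreceptors Lrp5 or Lrp6 they recruit Dishevelled proteins and halt the complex, scaffolded by Apc, that marks beta-catenin for degradation. The same receptors, with Ror, Ryk or Celsr partners, also feed pathways of cell polarity and calcium that do not use beta-catenin. In blood stem cells Wnt signals have been linked to self-renewal and quiescence, and Apc acts below the receptors in this pathway, so the comparison asks whether the receptor layer above Apc differs between Apcmin and WT cells.

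No Frizzled gene passed the test between genotypes, and the members lay on both sides of 0. In limma, with p-values adjusted by Benjamini-Hochberg over all 45037 probe sets, 0 of the 9 genes had an adjusted p under 0.05, as for 0% of all probe sets. At an unadjusted p under 0.05 there was 1 of the 9 genes, Fzd4, against 3.11% of all genes. Of the 9 genes, 4 had a higher mean in Apcmin (Fzd1, Fzd4, Fzd7 and Fzd9) and 5 a lower mean, against 43% of all genes with a higher mean. The median difference, Apcmin minus WT on the log2 scale, was -0.02 over the 9 genes and -0.04 over all genes. Fzd6 and Fzd7 were bright and nearly level between genotypes, Fzd5 lay just above the intensity used here to call a gene bright, and the other 6 were dim.

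Marker genes of the sorted population were bright. All 9 measured markers of LKS+ cells, among them Kit, Cd34 and Flt3, reached a mean of 6 on the log2 scale, the level called bright here, which 47.6% of all genes reached. The 6 arrays were alike in scale, with medians between 4.12 and 4.18 on the log2 scale. The arrays did differ at the dim end: genes with a mean under 4 were lower in Apcmin in 74.5% of 7177 cases, with a median difference of -0.14, and 37.9% of them were highest on WT replicate 1 and 31.9% on WT replicate 2. Genes with a mean of at least 6 had a median difference of 0.02. The 6 dim Frizzled genes lie at or near that dim range, and the files give no call of presence, so a dim value may be background.

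Ordered by intensity, the genes ran Fzd6, Fzd7, Fzd5, Fzd4, Fzd3, Fzd9, Fzd1, Fzd8 and Fzd2, with 6-array means of 8.17, 7.86, 6.16, 4.55, 4.47, 4.14, 3.45, 3.40 and 3.21 on the log2 scale. Intensities of different probe sets also depend on how well each binds its target, so the order describes these probe sets and not transcripts per cell. Fzd6 and Fzd7 lay at the 84.8th and 82.3rd percentiles of all probe sets and Fzd2 at the 39.7th. These are not ranks among genes: 33.7% of all probe sets were bright, against 47.6% of genes by their brightest probe set. Only the step between Fzd7 and Fzd5 was free of overlap, with every Fzd7 value above every Fzd5 value. Fzd6 exceeded Fzd7 on 5 of 6 arrays, Fzd4 exceeded Fzd3 on 4, Fzd1 exceeded Fzd8 on 2 and Fzd8 exceeded Fzd2 on 3, so those neighbours were not separated by their spread. On their brightest probe sets, closely related receptors did not sit together. In the Fzd1, Fzd2 and Fzd7 subfamily only Fzd7 was bright. In the Fzd3 and Fzd6 pair only Fzd6 was, and in the Fzd5 and Fzd8 pair only Fzd5 was. Each of these calls rests on the brightest probe set alone. The other probe sets reached means of at most 2.17 for Fzd7, 4.69 for Fzd6 and 1.79 for Fzd5.

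**Figure D1:**
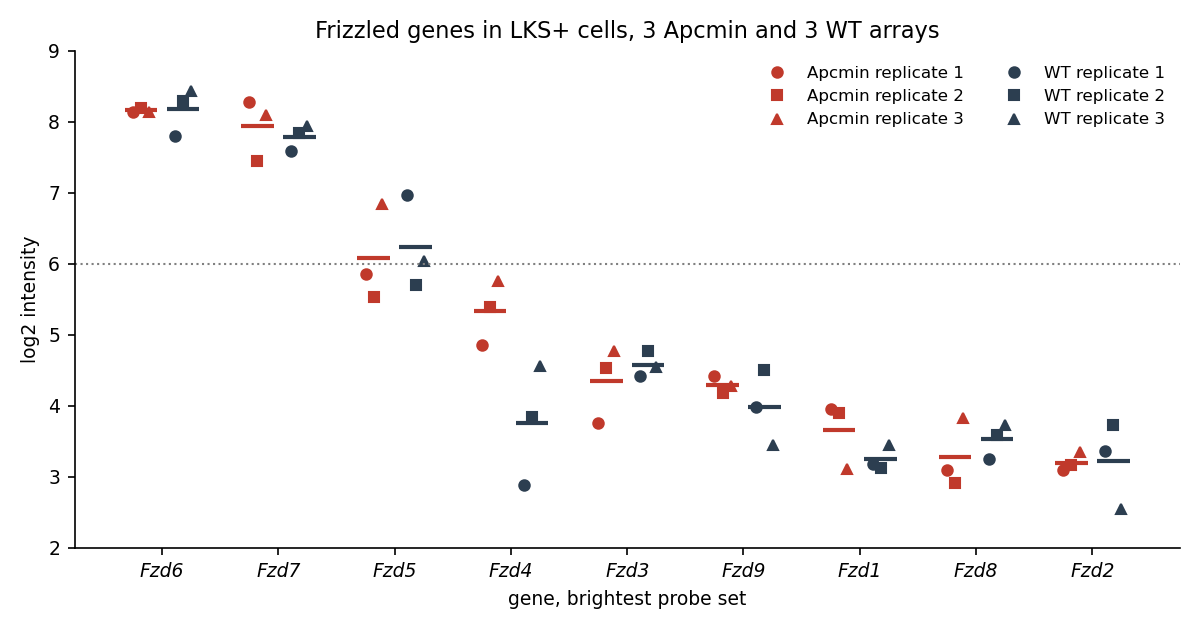
Log2 intensity of the brightest probe set of each Frizzled gene on each array, Apcmin (red) left of WT (dark), with symbols for the replicate, a bar at the mean of 3 arrays and a dotted line at 6. Fzd6 and Fzd7 sit between 7.45 and 8.43 in both genotypes, and Fzd4 is the gene whose Apcmin and WT values do not overlap.

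Fzd6, a receptor described in other cell systems as able to restrain beta-catenin signalling and best known in mice for hair and tissue polarity, gave the strongest signal of the family. Its log2 intensity was 8.14, 8.19 and 8.14 on the Apcmin arrays, against 7.81, 8.29 and 8.43 on the WT arrays. The Apcmin values lay inside the WT range, and WT replicate 1 was the lowest of all. The means were 8.16 ± 0.03 in Apcmin and 8.18 ± 0.33 in WT (SD, n = 3 each), a difference of -0.02 with a 95% confidence interval of -0.48 to 0.44 (limma, adjusted p = 0.996). A change of 2-fold, which is 1 on this scale, lies outside that interval. The sign turned without WT replicate 2 (0.04) or WT replicate 3 (0.11). The other Fzd6 probe sets, with means of 4.69 and 2.10, differed by 0.03 and 0.16.

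Fzd7, a receptor through which Wnt signals maintain intestinal and embryonic stem cells, came next. It stood at 8.27, 7.45 and 8.09 on the Apcmin arrays and at 7.59, 7.84 and 7.94 on the WT arrays. Apcmin replicates 1 and 3 were above all WT arrays while Apcmin replicate 2 was below them all. The difference was 0.15 with an interval of -0.43 to 0.72 (limma, adjusted p = 0.960). Without Apcmin replicate 2 it was at its highest and without Apcmin replicate 1 it was -0.02. The other Fzd7 probe set, at a mean of 2.17, differed by -0.30.

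Fzd5, a receptor for Wnt ligands in gut and eye development, was at 5.85, 5.54 and 6.84 on the Apcmin arrays, against 6.96, 5.70 and 6.04 on the WT arrays. Each genotype had 1 high array, Apcmin replicate 3 and WT replicate 1, and the groups overlapped throughout. The means were 6.08 ± 0.68 and 6.24 ± 0.65 in Apcmin and WT (SD, n = 3 each), a difference of -0.16 whose interval, -1.20 to 0.88, still holds a 2-fold lower level (limma, adjusted p = 0.975). Without WT replicate 1 the difference was 0.20 and without Apcmin replicate 2 it was 0.11, so Fzd5 has no settled direction. Its other probe set was near the bottom of the scale at 1.79 and differed by -0.52.

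Fzd4 showed the largest difference of the 9 genes. Fzd4 is the receptor for Norrin as well as for Wnt ligands, and is best known for its role in blood vessels of the retina. Its brightest probe set was at 4.86, 5.39 and 5.76 on the Apcmin arrays, against 2.89, 3.84 and 4.56 on the WT arrays. All 3 Apcmin values lay above all 3 WT values, with a gap of 0.30 between the lowest Apcmin and the highest WT array. The means were 5.34 ± 0.45 in Apcmin and 3.76 ± 0.84 in WT (SD, n = 3 each), a difference of 1.57 with an interval of 0.53 to 2.62, or 2.98-fold. In limma the unadjusted p was 0.00944 and the adjusted p 0.954, so the gene did not pass. Groups that do not overlap with Apcmin above were found in 2.97% of all genes, and differences of at least 2-fold in 0.583%, which is 106 genes. Among the 4094 probe sets whose mean was within 0.5 of this one, 133 differed at least 2-fold and 10 by at least 1.57. This Fzd4 probe set is itself included in these counts.

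The other Fzd4 probe sets did not share that difference. The second was at 1.93, 2.12 and 2.32 on the Apcmin arrays and at 3.92, 2.04 and 2.75 on the WT arrays, a difference of -0.78 carried mainly by WT replicate 1 (limma, adjusted p = 0.954). The third was at 1.20, 1.37 and 1.50 in Apcmin and 1.38, 1.50 and 1.38 in WT, near the lowest values on the arrays. WT replicate 1 was thus the lowest array for the brightest Fzd4 probe set and the highest for the second. Averaged over its 3 probe sets Fzd4 differed by 0.24, and without WT replicate 1 the brightest probe set differed by 1.14.

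**Figure D2:**
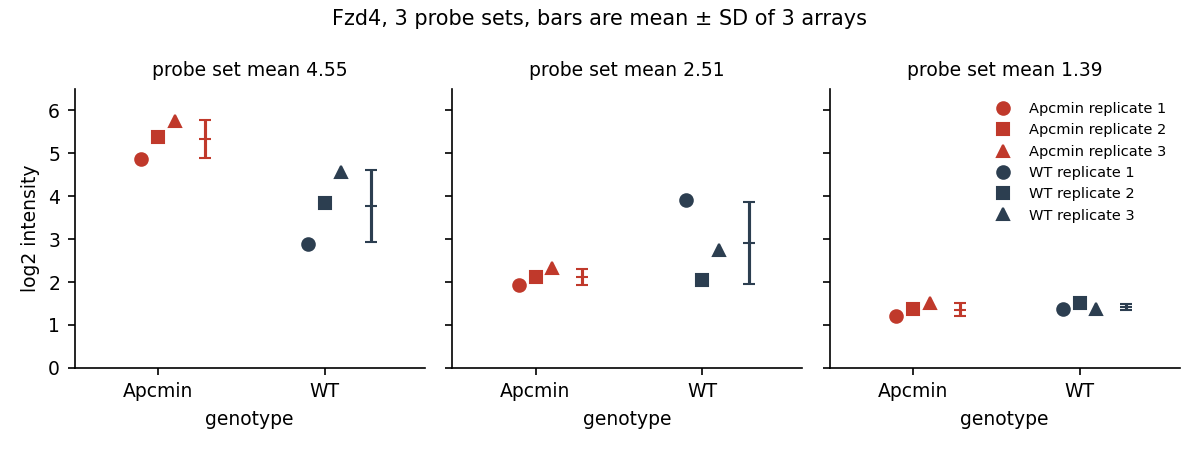
Log2 intensity of the 3 Fzd4 probe sets on each array, Apcmin (red) left of WT (dark), with the mean and SD of 3 arrays beside the points. The brightest probe set separates the genotypes, at 5.34 against 3.76, while the second is lower in Apcmin, at 2.12 against 2.90, and the third is level near 1.4.

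Because Fzd4 is known from endothelial cells, markers of those cells were read beside it. The 12 endothelial markers had a summed linear intensity of 631 to 720 on the Apcmin arrays, against 625 to 738 on the WT arrays, so the ranges overlapped. The defining endothelial genes Cdh5 and Kdr were dim in both genotypes, Cdh5 at 2.16 ± 0.07 in Apcmin and 2.25 ± 0.08 in WT (SD, n = 3 each). In all, 6 of the 12 had a mean under 4. The 4 bright ones, Emcn, Esam, Pecam1 and Tie1, are also found in blood stem cells and weigh most in a linear sum. The sums therefore do not measure endothelial content, which was not tested. Means were higher in Apcmin for 5 of the 12, most for Plvap (0.50) and Esam (0.48), and lower for 7. The 10 stromal markers summed to 269 to 303 in Apcmin and 274 to 343 in WT. Pdgfrb, the only bright stromal marker, weighs most in that sum. The 12 measured markers of mature blood cells summed to 431 to 505 in Apcmin and 479 to 675 in WT, with the highest sum on WT replicate 1. Csf1r, the brightest of them, weighs most in that sum and was itself highest on WT replicate 1, at 8.87. Of the 12 markers, 9 had a mean under 4. The part of these markers in the Frizzled values was not tested. In sorted bulk RNA, fewer cells expressing a receptor and less of its RNA per cell cannot be told apart.

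Fzd3, which guides axons and aligns cell polarity, was read by 6 probe sets that did not move together. The brightest was at 3.76, 4.53 and 4.77 on the Apcmin arrays and at 4.42, 4.77 and 4.54 on the WT arrays, with only Apcmin replicate 1 below the WT range (difference -0.22, interval -0.88 to 0.43, and 0.075 without that array). A further probe set of the gene was at 5.14, 3.89 and 3.86 in Apcmin and at 2.80, 3.08 and 4.08 in WT, a difference of 0.98 that did not pass (limma, adjusted p = 0.954). Of the 5 probe sets besides the brightest, 3 had a lower and 2 a higher mean in Apcmin, so the gene has no common direction.

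Fzd9, a receptor with roles in B-cell development and bone formation in mice, was at 4.42, 4.18 and 4.28 on the Apcmin arrays, against 3.98, 4.51 and 3.45 on the WT arrays. The Apcmin values lay within the wider WT range, and the difference of 0.31 had an interval of -0.33 to 0.95. It was 0.045 without WT replicate 3 and 0.57 without WT replicate 2. This was the only Frizzled gene here read by 1 probe set, so it has no second reading.

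Among the dimmest members, Fzd1 was at 3.96, 3.90 and 3.11 in Apcmin and at 3.17, 3.13 and 3.45 in WT, a difference of 0.40, and its other probe set went the opposite way. That probe set was at 1.45, 1.79 and 1.72 in Apcmin and at 2.31, 2.02 and 1.80 in WT, groups that barely failed to overlap (difference -0.39), and the mean of both Fzd1 probe sets differed by 0.0059. Fzd2, which acts with Fzd1 in palate and heart development, differed by -0.02 on its brightest probe set, where the groups overlapped and the sign turned without Apcmin replicate 1 (0.036), WT replicate 1 (0.056) or WT replicate 2 (0.24). A second Fzd2 probe set was at 2.32, 2.41 and 2.41 in Apcmin and at 2.56, 3.12 and 2.91 in WT, again without overlap (difference -0.49, limma, unadjusted p = 0.0312 and adjusted p = 0.954). Groups with Apcmin wholly below WT occurred in 4.78% of all probe sets and in 6.33% of genes with a mean under 4. Fzd8, which together with the cadherin Celsr2 has been described as keeping mouse stem cells quiescent in their niche, was at 3.10, 2.91 and 3.83 in Apcmin and at 3.26, 3.59 and 3.74 in WT. Its difference was -0.25 with an interval of -0.89 to 0.40, and its other probe set differed by 0.19.

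Over the whole family, 9 of the 24 probe sets had a higher mean in Apcmin and 15 a lower mean, against 44.4% of all probe sets with a higher mean. Of the 15 probe sets that did not stand for a gene, 6 went the same way as the one that did. For Fzd1, Fzd4, Fzd6, Fzd7 and Fzd8 none did. All 15 had a mean under 6. The share of such agreement over all genes was not computed. A turned sign was also counted where both values lay near 0, as for Fzd6 at -0.02 and 0.03. The half-width of the 95% interval ran from 0.46 for Fzd6 to 1.05 for Fzd4 among the 9 genes, with a median of 0.64, against a median of 0.46 over all genes. No array was high or low for the family at large: Apcmin replicate 3 held the highest value of 3 genes and Apcmin replicate 2 the lowest of 3. For Fzd3, counted for Apcmin replicate 3, WT replicate 2 was also at 4.77.

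**Figure D3:**
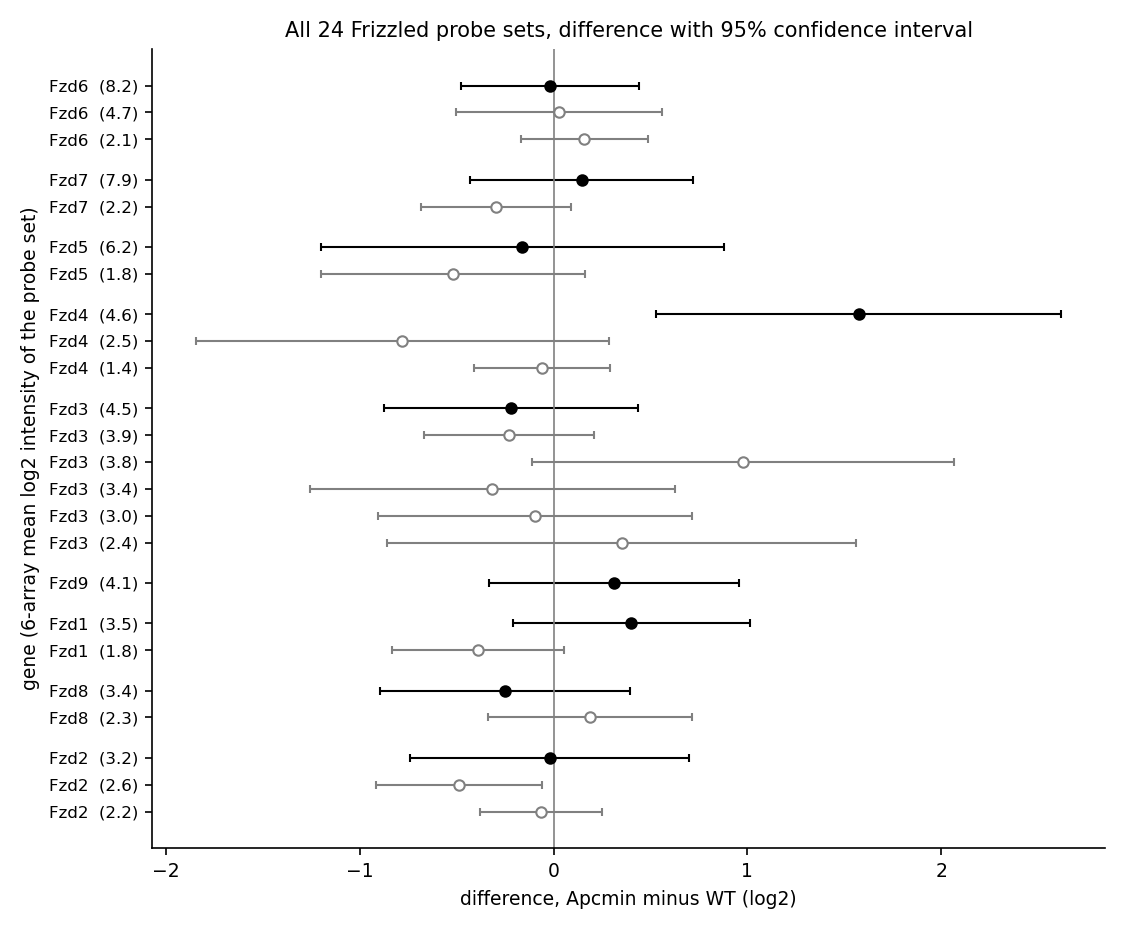
Difference between Apcmin and WT on the log2 scale with its 95% confidence interval from limma for each of the 24 Frizzled probe sets, grouped by gene with the 6-array mean log2 intensity in parentheses. Filled points stand for the gene and open points are its other probe sets. Only the brightest Fzd4 probe set (1.57) and the second Fzd2 probe set (-0.49) have intervals that leave out 0, and neither passed after adjustment.

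Since Apc restrains the beta-catenin that acts on DNA through TCF/LEF factors, the start regions of the Frizzled genes were searched for the core letters these factors bind. RefSeq start regions of the build GRCm38.p6 were on hand for 5 of the 9 genes, and the 250 bases before the start were searched on both strands for CTTTGA and CTTTGT. The letters were found in 2 of the 5, Fzd1 with 2 matches and Fzd7 with 1, and they occur in 27.6% of 32851 such regions over all genes. No matches overlapped in the regions shown. The region of Fzd4, the gene with the largest difference, held none, nor did those of Fzd5 and Fzd9. A match is a description of letters and not a site of binding. The 3 sequences below are given 5′ to 3′ on the strand of the gene, with the matched letters of either strand in capitals, for Fzd7 at chr1:59481897-59482146 (plus strand), Fzd1 at chr5:4758217-4758466 (minus strand) and Fzd4 at chr7:89404116-89404365 (plus strand).
Fzd7: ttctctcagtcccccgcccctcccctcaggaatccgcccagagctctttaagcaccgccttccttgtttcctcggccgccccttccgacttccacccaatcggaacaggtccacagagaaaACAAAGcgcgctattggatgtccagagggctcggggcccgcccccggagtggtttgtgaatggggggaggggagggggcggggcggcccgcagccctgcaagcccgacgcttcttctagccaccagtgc
Fzd1: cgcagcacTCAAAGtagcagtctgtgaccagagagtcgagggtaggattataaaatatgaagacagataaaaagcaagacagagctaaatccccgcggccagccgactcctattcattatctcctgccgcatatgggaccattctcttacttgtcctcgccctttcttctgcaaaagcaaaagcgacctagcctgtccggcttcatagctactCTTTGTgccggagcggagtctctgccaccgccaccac
Fzd4: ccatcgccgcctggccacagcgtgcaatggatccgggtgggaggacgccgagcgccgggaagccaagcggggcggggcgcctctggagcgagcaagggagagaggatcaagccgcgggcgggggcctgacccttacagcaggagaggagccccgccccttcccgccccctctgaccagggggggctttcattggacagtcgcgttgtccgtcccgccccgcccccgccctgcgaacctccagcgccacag
The Fzd4 region is 72.8% G and C with 25 CG pairs, that of Fzd7 65.2% with 17 and that of Fzd1 51.2% with 12, against medians of 52.4% and 6 over all regions.

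Genes of the pathways around Frizzled receptors were counted by role in 8 lists, which also hold Smo, a gene of the Hedgehog pathway. Of 75 listed genes 74 were measured and 17 were bright, and 0 passed in either direction in limma (1 had an unadjusted p under 0.05). Means were higher in Apcmin for 32 and lower for 42, with a median difference of -0.04. Over all genes 47.6% were bright and 3.11% had an unadjusted p under 0.05 in limma. A higher mean in Apcmin was found for 43% of all genes, and their median difference was also -0.04.

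All 19 Wnt ligand genes were dim, with means between 1.61 and 3.81, and all 19 had a lower mean in Apcmin, with a median difference of -0.22. This stands beside the 74.5% of genes with a mean under 4 that were also lower. Wnt4 was at 3.42 ± 0.44 in Apcmin and 3.99 ± 0.23 in WT (SD, n = 3 each), and Wnt6, the ligand with the highest mean, at 3.79 ± 0.23 and 3.84 ± 0.29. Wnt10a was at 2.08 ± 0.14 in Apcmin and 2.44 ± 0.31 in WT, without overlap. Apcmin lay wholly below WT for 1 of the 19 ligands, Wnt10a, against 6.33% of genes with a mean under 4. The ligands did not separate the genotypes array by array. WT replicate 1 held the highest value of 10 ligands and WT replicate 2 of the other 9, with Wnt4, counted for WT replicate 1, at 4.12 on both. WT replicate 3 held the lowest value of 10, below the Apcmin arrays. The 7177 genes with a mean under 4 were also most often highest on WT replicate 1 (37.9%) and WT replicate 2 (31.9%). Of these, 2214 were lowest on WT replicate 3, more than on any other array. Without WT replicate 1, 16 of 19 ligands were lower, beside 65% of the genes with a mean under 4. Of the genes for ligand release, Wls, the carrier that brings Wnt proteins to the cell surface, was bright at 7.54 ± 0.14 in Apcmin and 7.41 ± 0.14 in WT, and Porcn, which adds their lipid, was dim and differed by 0.09. The list also held Notum, which is not a release gene and was level, at 2.32 in both genotypes (difference 0.0019). All 3 genes of this list had a higher mean on their brightest probe set and none passed. Wls was read by 4 probe sets, and none of the others went the same way as the brightest.

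Other agonists and the secreted antagonists were dim throughout. Norrin, encoded by Ndp and the special ligand of Fzd4, was at 1.55 ± 0.17 in Apcmin and 1.50 ± 0.58 in WT (SD, n = 3 each), and Tspan12, the membrane partner through which Norrin acts on Fzd4, was at 1.26 ± 0.48 and 1.01 ± 0.14, both near the bottom of the scale. Of the R-spondins, which protect Frizzled from removal, Rspo1 differed by 0.24, Rspo2 by -0.04, Rspo3 by -0.21 and Rspo4 by -0.22. Among the 11 antagonists 6 had a higher and 5 a lower mean. Sfrp1, a secreted protein with a Frizzled-like domain that binds Wnt, was the brightest of them at 4.84 ± 0.79 in Apcmin and 4.49 ± 0.28 in WT, Sfrp4 differed by -0.10, Dkk3 by -0.27 and Sost by -0.27.

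Among the 9 measured coreceptors and partners, Lrp6 was bright and level, at 9.65 ± 0.06 in Apcmin and 9.58 ± 0.18 in WT (SD, n = 3 each), a difference of 0.06 with an interval of -0.30 to 0.42. Ryk, a receptor for Wnt5a, differed by 0.34, a direction that none of its other probe sets shared, and Ror1 by -0.44. Kremen1, which binds Dickkopf proteins and removes Lrp6 from the surface, was at 5.52 ± 0.16 in Apcmin and 4.81 ± 0.28 in WT without overlap. The difference was 0.71 (limma, unadjusted p = 0.0078 and adjusted p = 0.954), and the 2 further Kremen1 probe sets were also higher. Apcmin lay wholly above WT for 1 of the 74 listed genes, Kremen1, against 2.97% of all genes. Of genes that control Frizzled turnover, Znrf3, a ubiquitin ligase that clears the receptors and is itself induced by Wnt, was at 7.42 ± 0.11 and 7.12 ± 0.38 in Apcmin and WT, a difference of 0.30 (interval -0.22 to 0.81). Usp8, which removes ubiquitin from Frizzled and so returns it to the surface, differed by 0.12, a direction its other probe set did not share. Apcdd1, a membrane-bound Wnt inhibitor, differed by 0.47 (interval -0.26 to 1.20), with all 5 of its other probe sets in the same direction. On the brightest Apcdd1 probe set the groups overlapped, with WT replicate 1 lowest at 5.21 and WT replicate 3 highest at 6.43. In this list 4 genes had a higher and 5 a lower mean.

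The transducers were the brightest of the 8 lists, with 8 of 11 genes bright, 7 higher and 4 lower. These counts include Smo, a gene of the Hedgehog pathway that does not act below Frizzled (mean 5.36, difference 0.22). Dvl1, a Dishevelled protein, was at 10.85 ± 0.19 in Apcmin and 10.74 ± 0.12 in WT (SD, n = 3 each), a difference of 0.11 (interval -0.28 to 0.50). The kinase gene Csnk1d differed by 0.09 and Csnk1e by 0.32. Gipc1, an adaptor that binds receptor tails, was at 7.88 ± 0.08 in Apcmin and 8.21 ± 0.24 in WT without overlap (difference -0.33, limma, unadjusted p = 0.094). Among bright genes, 3.48% had Apcmin wholly below WT. Of the 7 planar polarity genes 4 had a higher and 3 a lower mean. Celsr2, the partner of Fzd8 named above, had the largest difference of that list, 0.89 (6.46 ± 0.25 in Apcmin and 5.57 ± 1.70 in WT). That difference rested on WT replicate 1, at 3.61. WT replicates 2 and 3, at 6.47 and 6.64, lay inside the Apcmin range of 6.19 to 6.67. A higher Celsr2 mean in Apcmin was seen on the brightest probe set only. Celsr1 differed by 0.14 and Vangl2 by -0.07.

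**Figure D4:**
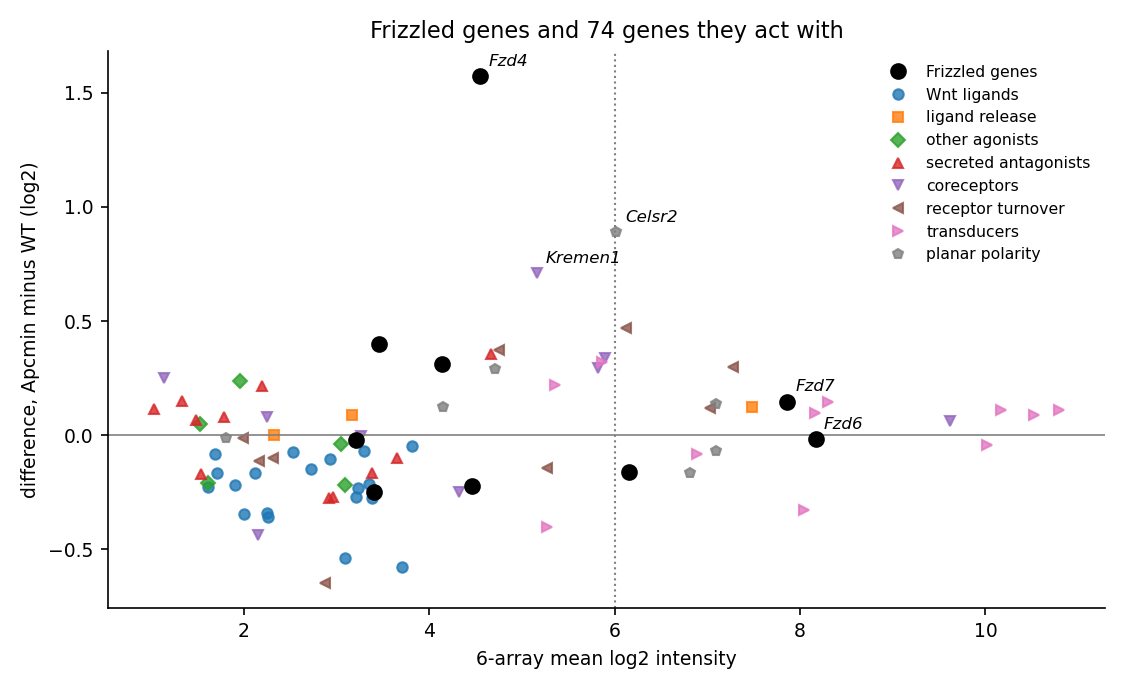
Difference between Apcmin and WT (log2) against the 6-array mean log2 intensity for the 9 Frizzled genes (black) and 74 genes they act with, coloured by list, with a dotted line at 6. Fzd4 stands highest at 1.57, Fzd6 and Fzd7 lie near 0 among the bright genes, and the 19 Wnt ligands lie below 0 at the dim end.

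The genes whose profile over the 6 arrays was most like a Frizzled gene were sought among 8418 bright genes with established names, by the root mean square difference of log2 values centred on each gene's mean. For Fzd6, whose own values had an SD of 0.19 over the arrays, these were Rbbp5, a subunit of histone methyltransferase complexes, at 0.04, Tmco6 at 0.05 and Cpeb4, an RNA-binding protein, at 0.05. For Fzd4, whose values had an SD of 0.96, the nearest were Vps25, of the sorting machinery of endosomes, at 0.45, Cilk1, a kinase of cilia, at 0.51, and Adat1, a tRNA deaminase, at 0.52. The likeness to Fzd4 was thus looser, but Fzd4, at a mean of 4.55, was itself dimmer than the genes searched. Among all 8658 bright genes, named or not, 8 differed at least 2-fold, so few could match its spread. With 6 arrays and this many genes, close profiles can arise without any link, and how often was not tested.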

How the data were processed

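LKS+ cells were sorted by flow cytometry, at least 20000 per mouse at a purity above 90%, and their RNA was linearly amplified and hybridized to whole-genome Affymetrix mouse arrays, per the labels' protocols. The deposited values are linear intensities, already normalized by the authors. The submitters' processing notes name RMA without a version or a background step, and differences between dim probe sets can reflect background. Precision is limited by the number of arrays.

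Log2 was taken of the deposited intensity with no pseudocount. From 45101 probe sets the 64 controls were dropped, and the rest were fitted in limma 3.58.1 (R 4.3.3, lmFit and eBayes with a genotype term, 6 arrays), with Benjamini-Hochberg adjustment over the 45037 at 0.05. The platform annotation gave 34945 of them 1 symbol, 932 several and 9160 none.

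Named genes were all members with every probe set, the 2 brightest and the 2 of smallest p in each pathway list, and the 3 genes nearest in profile to Fzd6 and to Fzd4. Ndp, Tspan12, Notum, Smo and single marker genes were added after values were seen. The members and lists were chosen with earlier results of these data known. Replicate numbers did not pair the arrays. The limma step was checked on simulated data. Alternatives were a further quantile normalization, a floor at 4, filters on dim probe sets, a mean-variance trend, array weights, a replicate block, each array left out and a gene's mean over its probe sets.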

Additional observations from a re-analysis of the deposited data

How the results depend on the processing

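No Frizzled or pathway gene passed the adjusted threshold in limma under any of the 14 alternatives that gave it a value, and no probe set did under the 13 that test probe sets. At an unadjusted p under 0.05 the main analysis had 1714 probe sets. Without WT replicate 3 that number was 5864, and with the filters at the median and at a mean of 6 it was 757 and 486, where fewer probe sets were tested. Fzd1, Fzd4, Fzd8 and Fzd9 kept their direction, though not their size, in every alternative that gave a value. Fzd4 ranged from 1.14 to 1.97 when each array was left out, and was 1.15 with the floor at 4 and 0.24 with the mean of its probe sets. The direction turned for 5 genes with small differences, and the cause was not tested: with the mean of all probe sets Fzd3 was 0.078, Fzd6 0.057 and Fzd7 -0.076, with array weights Fzd5 was 0.027, and with a further quantile normalization Fzd2 was 0.027. Leaving out each array gave ranges of -0.35 to 0.24 for Fzd2, -0.43 to 0.075 for Fzd3, -0.54 to 0.20 for Fzd5, -0.20 to 0.11 for Fzd6 and -0.021 to 0.39 for Fzd7. The genes that kept their sign also moved in size, from 0.25 without Apcmin replicate 1 to 0.67 without Apcmin replicate 3 for Fzd1, from -0.52 without Apcmin replicate 3 to -0.065 without Apcmin replicate 2 for Fzd8 and from 0.045 without WT replicate 3 to 0.57 without WT replicate 2 for Fzd9. The number of the 9 genes higher in Apcmin was 4 to 6 over these, and the number of Wnt ligands lower was 16 to 19, an alternative count chosen after seeing the data, and 17 with the further quantile normalization. Same-numbered arrays did not deviate together (correlations of -0.05, -0.07 and -0.23), and with the replicate block Fzd4 stayed at 1.57 (adjusted p = 0.998) with 0 probe sets past the threshold. Fzd1, Fzd2 and Fzd8 have no value with the floor at 4, since all their values lie under it, nor with the filter at the median, and the filter at a mean of 6 left out all 6 dim genes. Signal over background limits what can be said of the 6 dim genes.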
